A study of Mus musculus with 24 samples.

Results

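The receptors described here are 10 genes whose products tune the signal that a T cell draws from its antigen receptor: Cd28, Icos, Ctla4, Pdcd1, Lag3, Tigit, Havcr2, Btla, Cd5 and Cd6. They were chosen by symbol among 55414 genes listed, of which 10566 were expressed well enough to be tested, and all 10 receptors were among those tested. RNA was measured in Tconv CD4+ cells (CD4+ CD25-), isolated from mouse spleen with magnetic beads. The mice shared the C57BL/6J nuclear genome. They carried either their own mitochondrial DNA (mtDNA B6, labelled WT) or that of the NZB strain (mtDNA NZB). The haplotypes compared thus differ in the mitochondrial genome. The study used males of 2 to 3 months in most of its experiments, a statement not made for these libraries alone. Cells were resting or had been activated with CD3/CD28 beads for 72 h, at equal numbers of beads and cells. The paper names IL-2 beside the beads, and its wording leaves unclear whether Tconv cells received it. Whether resting cells were cultured is not stated in the sources used here. Each haplotype and state had 6 libraries, 24 in all.

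A naive T cell needs a costimulatory signal beside that of its antigen receptor. CD28, present on resting T cells, binds CD80 and CD86 and gives that signal, and it is also the receptor that the activating beads engage together with CD3. ICOS, a relative of CD28 that appears after stimulation, binds ICOS ligand. CTLA-4 competes with CD28 for the same ligands, while PD-1 (Pdcd1) and BTLA recruit phosphatases that damp antigen receptor and CD28 signals. LAG-3, TIGIT and TIM-3 (Havcr2) are further checkpoints, which bind MHC class II, the nectin-like protein CD155 and ligands such as galectin-9. CD5 and CD6 are scavenger receptor family proteins of the T cell surface that adjust antigen receptor signalling, and CD5 restrains it.

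The cytoplasmic tails carry the signal of these receptors, and several tails hold short tyrosine motifs. The following 30 coding bases of the reference genome are shown because they hold those motifs, with the motif in capitals, from the GENCODE canonical transcript, 5′ to 3′ on the strand of the gene (build GRCm39). Cd28 lies at chr1:60808843-60808872 in exon 4 of 4, Icos at chr1:61034710-61034739 in exon 4 of 5, Ctla4 at chr1:60953796-60953825 in exon 4 of 4, all on the plus strand, and Pdcd1 at chr1:93967138-93967167 on the minus strand in exon 5 of 5.
Cd28 PI3K docking motif: caaagtgacTACATGAACATGactccccgg
Icos PI3K docking motif: aatagtgaaTACATGTTCATGgcggcagtc
Ctla4 tail tyrosine motif: acaggggtcTATGTGAAAATGcccccaaca
Pdcd1 switch motif (ITSM): gtgcacACAGAATATGCCACCATTgtcttc
The Cd28 and Icos motifs shared 10 of 12 bases, those of Cd28 and Ctla4 9 of 12, and those of Icos and Ctla4 7 of 12.

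The genes also stand close together. Cd28 (chr1:60755959-60812518), Ctla4 (chr1:60926159-60954991) and Icos (chr1:61017086-61039479) follow each other on chromosome 1, with gaps of 113640 and 62094 bases and no other protein-coding gene between neighbours. Cd5 (chr19:10694480-10716366) and Cd6 (chr19:10766705-10807422) are neighbours on chromosome 19, 50338 bases apart, with none between. Pdcd1 (chr1:93966027-93980312), Lag3 (chr6:124881320-124888765), Tigit (chr16:43469100-43484509), Btla (chr16:45044475-45078033) and Havcr2 (chr11:46345673-46374149) lie apart. The libraries count the 3′ end of transcripts. There Ctla4 and Cd6 each overlap the span of an antisense noncoding RNA gene in GENCODE M39 (Gm69500 and A430093F15Rik). Strand is not named for the counting in the sources used here, so whether reads of these pairs were kept apart is not known.

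Levels are given as CPM, which are UMI counts scaled by TMM to a common library size. Libraries held 641467 to 6449395 UMI counts, except mtDNA NZB resting replicate 2 with 51409, in which a single count is worth 16.9 CPM. That library held no count of Cd28, Icos, Tigit or Havcr2 and 1 count each of Pdcd1, Lag3 and Btla, so it says little about any receptor outside Cd5, Cd6 and Ctla4. It stayed in the fits, and leaving it out changed no call of a receptor. The 10 T cell genes (Cd3d, Trac and others) summed to 5535 to 10593 CPM in the remaining 23 libraries. The activation list summed to 279 to 477 CPM at rest and 509 to 968 after activation; Il2ra rose from 3.00 to 79.8 CPM in mtDNA B6, while Cd69, an early activation marker, was higher at rest (64.6 against 4.84 CPM). B cell genes summed to medians of 11059 and 10349 CPM in resting mtDNA B6 and mtDNA NZB cells, and 3899 and 2900 after activation, most of which was Ighm, with means of 10125 and 3387 CPM in resting and activated mtDNA B6 cells. Neutrophil genes reached 19180 CPM in mtDNA NZB resting replicate 6, which also had the lowest T cell sum, against at most 6826 in any other resting library. RNA is measured in bulk, so a change in the number of cells of a type and a change of RNA per cell cannot be told apart.

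The order of the 10 receptors was led by the same genes in every group. Cd6, Cd5 and Ctla4, in this order, had the highest mean CPM in all 4 groups, and in resting mtDNA B6 cells they made up 42.8%, 39.5% and 10.3% of the CPM of the 10 receptors. The resting mtDNA B6 ranges of Cd6 and Cd5 overlapped, at 341 ± 52.3 and 315 ± 46.0 CPM (SD, n = 6), although Cd5 lay below Cd6 within each of these 6 libraries. Lag3 had rank 5 in resting mtDNA B6 cells with 1.16% and rank 4 after activation with 9.67%, and in mtDNA NZB cells it moved from 0.706% (n = 5, without the shallow library) to 8.56%. Btla and Havcr2 were the rarest at rest, with at most 18 UMI counts of either gene in any resting library. These shares are a description: a UMI marks a molecule whatever its length, but genes may differ in how well their 3′ end is captured.

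**Figure D1:**
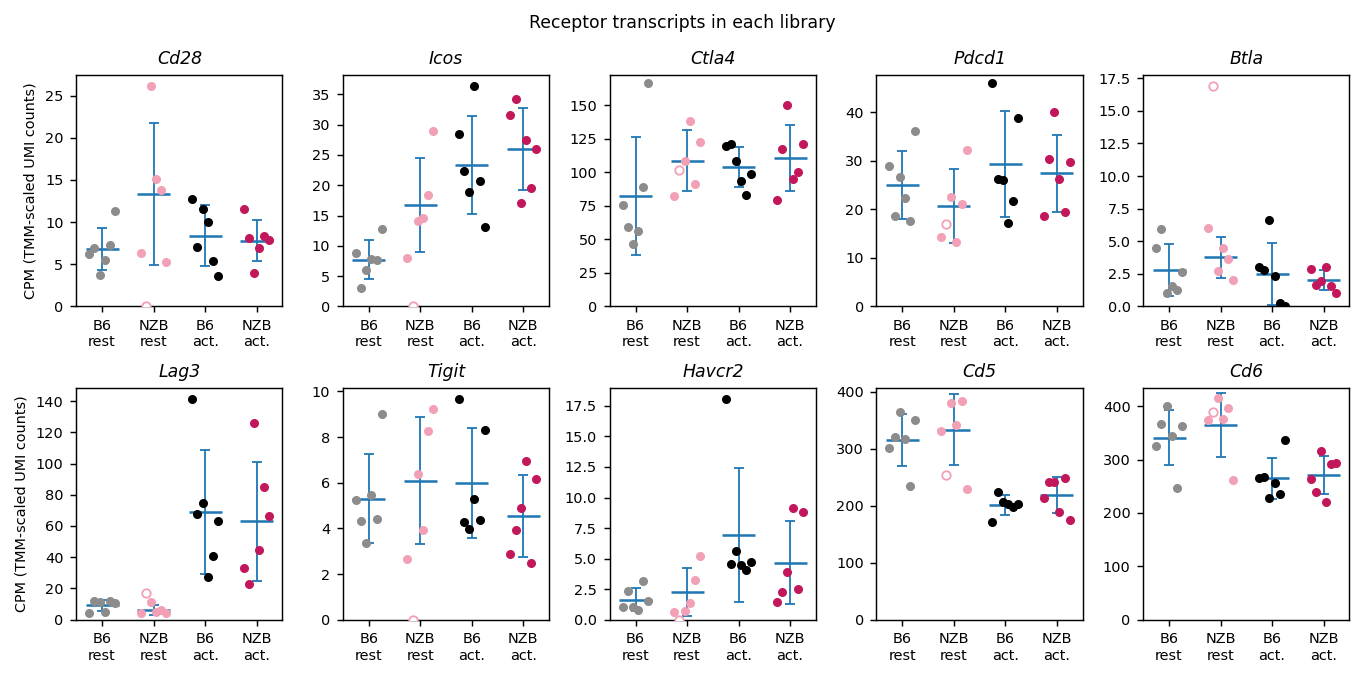
CPM of each receptor gene in every library, by haplotype and state; the vertical axes start at 0 and differ between panels. Blue bars are the mean ± SD without mtDNA NZB resting replicate 2, which is drawn as an open circle. Lag3 in activated cells lies above all resting libraries in both haplotypes, and Cd5 and Cd6 are lower after activation.

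The first comparison asked which receptors change when cells of each haplotype are activated. In mtDNA B6 cells 3 of 10 receptors rose (Lag3, Havcr2 and Icos), where 22.3% of all genes tested were higher, and 2 of 10 fell (Cd5 and Cd6), where 24.4% were lower. Together 5 of 10 were called, against 46.8% of all genes. Among mtDNA NZB cells 1 of 10 rose (Lag3), against 25.1% of all genes, and Cd5 and Cd6 fell, against 28.2%, so that 3 of 10 were called against 53.3%. A call needed an adjusted p no higher than 0.05 from edgeR (quasi-likelihood), adjusted by Benjamini and Hochberg's procedure across the 10566 genes. The resting and activated values did not overlap for 4 of 10 receptors in mtDNA B6 cells, where 31.8% of all genes did not overlap, and for 1 of 10 in mtDNA NZB cells, where 18.9% did not. These shares are near or below those of all genes, and the results that follow concern single receptors. The labels do not say whether libraries of a group came from separate mice, so the p-values measure the spread between these libraries.

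Lag3 had the largest rise of the 10 receptors in both haplotypes. In mtDNA B6 cells it ranged from 3.99 to 12.2 CPM at rest (median 10.8) and from 27.1 to 142 after activation (median 65.3). The mtDNA NZB libraries ranged from 4.34 to 16.9 CPM at rest (median 5.36), the highest being the single count of the shallow library, and from 22.8 to 126 after activation (median 55.5). Activated libraries lay above all resting ones in both haplotypes. The log2 fold change was 2.89 ± 0.43 (SE; adjusted p = 1.08e-05) in mtDNA B6 and 3.35 ± 0.49 (adjusted p = 6.85e-06) in mtDNA NZB. The activated libraries differed widely among themselves, with mtDNA B6 replicate 1 and mtDNA NZB replicate 3 the highest.

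LAG-3 is also made by CD8 T cells and NK cells, and their markers moved with the comparison. The sum of Cd8a and Cd8b1 had medians of 68.6 CPM at rest and 277 after activation in mtDNA B6 cells, and 65.2 and 165 in mtDNA NZB cells. All 8 NK cell markers together had medians of 87.9 and 180 CPM in mtDNA B6 cells and 77.4 and 111 in mtDNA NZB cells. Klra8 had no count in any group, Klra4 none after activation, and Klrb1c fell by 1.99 and 2.79 on the log2 scale, while Gzma, a granule protease of cytotoxic cells, rose from 15.3 to 138 CPM in mtDNA B6 cells and from 12.6 to 58.1 in mtDNA NZB cells. mtDNA B6 activated replicate 1, the highest library for Lag3, was also the highest for the NK list at 595 CPM, and without it the Lag3 change was 2.55 (adjusted p = 2.11e-05). The libraries highest for CD8 markers in each haplotype, mtDNA B6 replicate 6 at 405 CPM and mtDNA NZB replicate 6 at 534, had 63.0 and 66.1 CPM of Lag3, near the middle of their groups. In activated mtDNA NZB cells replicate 3, the highest for Lag3, was second for both lists (356 and 223 CPM), and replicates 1 and 2, at 33.1 and 22.8 CPM of Lag3, were the lowest for both (82.0 and 85.5 CPM of CD8 markers, 37.4 and 49.3 of NK markers). Replicate 5 of that group, second for Lag3 at 85.2 CPM, had 124 CPM of CD8 markers and 56.0 of NK markers. Both sums lay below those of replicate 4 (205 and 166 CPM), which had 44.9 CPM of Lag3. The part of CD8 T cells and NK cells in the rise of Lag3 was not tested.

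Havcr2 was rare in all groups. In mtDNA B6 cells it ranged from 0.783 to 3.19 CPM at rest (median 1.26), from 38 UMI counts in all, and from 4.09 to 18.1 after activation (median 4.67), from 152. The groups did not overlap, and the log2 fold change was 1.99 ± 0.50 (adjusted p = 0.00214). Replicate 1 alone stood at 18.1 CPM, and without it the change was 1.41 (adjusted p = 0.0156). For mtDNA NZB, Havcr2 ranged from 0 to 5.22 CPM at rest (median 1.04) and from 1.44 to 9.15 after activation (median 3.20), and the groups overlapped. The log2 fold change there was 1.27 ± 0.56 (adjusted p = 0.0589), and leaving out resting replicate 6, the library rich in neutrophil genes, made it 1.86 (adjusted p = 0.0124). It also passed without activated replicate 1, 2 or 5 of mtDNA NZB (adjusted p = 0.0479, 0.039 and 0.0416) or activated replicate 1 of mtDNA B6 (0.0297), and without mtDNA NZB activated replicate 6 the change was 0.93 (adjusted p = 0.193).

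Icos rose in mtDNA B6 cells and was not called in mtDNA NZB cells. In the former it ranged from 2.98 to 12.8 CPM at rest (median 7.73) and from 13.1 to 36.5 after activation (median 21.5). The groups touched but did not overlap, and the log2 fold change was 1.62 ± 0.30 (adjusted p = 7.27e-05). The mtDNA NZB libraries held from 0 to 28.9 CPM of Icos at rest (median 14.3), and from 8.01 to 28.9 (median 14.6) without the shallow library. After activation they held from 17.0 to 34.2 CPM (median 26.7), with overlap. The change was 0.64 ± 0.30 (adjusted p = 0.0719). The activated ranges of the haplotypes overlapped. At rest Icos had 7.67 ± 3.22 CPM in mtDNA B6 (SD, n = 6) and 16.8 ± 7.72 in mtDNA NZB (n = 5, without the shallow library). Resting replicate 6 of mtDNA NZB held the highest resting value, 28.9 CPM. Without it the change on activation was 0.93 (adjusted p = 0.0107), the upper end when single libraries were left out. The lower end was 0.47, without resting replicate 1, and the highest adjusted p was 0.187. Regulatory T cells carry much ICOS, and their 8 markers, led by Tnfrsf18, had median sums of 195 CPM at rest and 550 after activation in mtDNA B6 cells and 200.5 and 701 in mtDNA NZB cells. Tnfrsf18 alone had means of 136 and 468 CPM in mtDNA B6 cells and 177 and 580 in mtDNA NZB cells. The sums thus mostly follow this gene. Of the 8 markers 3 rose and 2 fell in mtDNA B6, where 22.3% of all genes tested were higher and 24.4% lower. In mtDNA NZB 4 rose and 0 fell, against 25.1% and 28.2%. The sum reached 327 and 291 CPM in mtDNA NZB resting replicates 5 and 6, the resting libraries highest for Icos, against at most 228 in any other resting library. The part of these cells in the values of Icos was not tested.

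Cd28 itself, the receptor that the beads bind, was not called. In mtDNA B6 cells it ranged from 3.71 to 11.3 CPM at rest (median 6.59) and from 3.57 to 12.7 after activation (median 8.50), a log2 fold change of 0.31 with a 95% interval from -0.41 to 1.03. Cd28 in mtDNA NZB cells ranged from 0 to 26.2 CPM at rest (median 10.05), and from 5.22 to 26.2 (median 13.7) without the shallow library. After activation it ranged from 3.93 to 11.5 CPM (median 8.04), a change of -0.81 ± 0.36 (adjusted p = 0.0598). The highest value, in resting replicate 3, carries much of that difference: without that library the change was -0.41 (adjusted p = 0.335), and without resting replicate 6 it was -1.01 (adjusted p = 0.0165).

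The inhibitory relatives of CD28 were not called either. Ctla4 ranged from 46.6 to 167 CPM in resting mtDNA B6 cells (median 67.7) and from 82.9 to 121 after activation (median 104). The change of 0.34 ± 0.22 (adjusted p = 0.22) depended on resting replicate 6, which at 167 CPM lay above every activated mtDNA B6 library: without it the change was 0.70 (adjusted p = 0.00208). The lowest value with a single library left out was 0.25, without resting replicate 4, and the highest adjusted p was 0.388. In mtDNA NZB cells Ctla4 ranged from 82.4 to 138 CPM at rest (median 105) and from 79.1 to 151 after activation (median 109), a change of 0.04 with a 95% interval from -0.43 to 0.52. Pdcd1 ranged from 17.6 to 36.1 CPM at rest and from 17.2 to 46.1 after activation in mtDNA B6 cells, with a change of 0.23 (95% interval -0.27 to 0.73). In mtDNA NZB cells its change was 0.46 (95% interval -0.08 to 1.00; adjusted p = 0.141). With single libraries left out it ran from 0.32, without activated replicate 3, to 0.67 (adjusted p = 0.0355), without resting replicate 6. The highest adjusted p was 0.317. For Ctla4 and Pdcd1 these intervals leave out a rise as large as that of Lag3. Btla, with at most 20 UMI counts in a library, changed by -0.16 (95% interval -1.26 to 0.94) and -1.12 (95% interval -2.34 to 0.10), which is too wide to read at this depth.

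Tigit, a checkpoint of T and NK cells, ranged from 3.37 to 9.03 CPM at rest and from 3.97 to 9.67 after activation in mtDNA B6 cells, and from 0 to 9.23 and from 2.48 to 6.97 in mtDNA NZB cells. Its changes were 0.18 (95% interval -0.47 to 0.83) and -0.31 (95% interval -1.03 to 0.40). Without the shallow library resting mtDNA NZB cells held 2.67 to 9.23 CPM of Tigit, and the groups overlapped throughout.

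Cd5 and Cd6 fell in both haplotypes, by less than the rises above but from far higher counts. Cd5 ranged from 234 to 365 CPM in resting mtDNA B6 cells (median 319) and from 172 to 225 after activation (median 203), with no overlap. Its log2 fold change was -0.65 ± 0.13 (adjusted p = 0.000141). The mtDNA NZB libraries ranged from 229 to 383 CPM at rest (median 337) and from 175 to 248 after activation (median 228), a change of -0.58 ± 0.13 (adjusted p = 0.000469). The groups overlapped there, since resting replicate 6 (229 CPM) lay within the activated range, and the shallow replicate 2 (254 CPM) lay just above it.

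Cd6 ranged from 247 to 400 CPM in resting mtDNA B6 cells (median 354) and from 227 to 336 after activation (median 261). Its log2 fold change was -0.37 ± 0.13 (adjusted p = 0.0179), and the call was lost without resting replicate 3 (-0.27, adjusted p = 0.0794) or resting replicate 6 (-0.30, adjusted p = 0.0573). Cd6 in mtDNA NZB cells ranged from 262 to 415 CPM at rest (median 382) and from 221 to 316 after activation (median 278), a change of -0.44 ± 0.13 (adjusted p = 0.00552). The groups overlapped in both haplotypes. Of the T cell genes, Trac also fell in both (log2 fold changes of -0.49 and -0.34), Cd3d and Thy1 rose, and Cd4 was not called (-0.22 and -0.03).

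**Figure D2:**
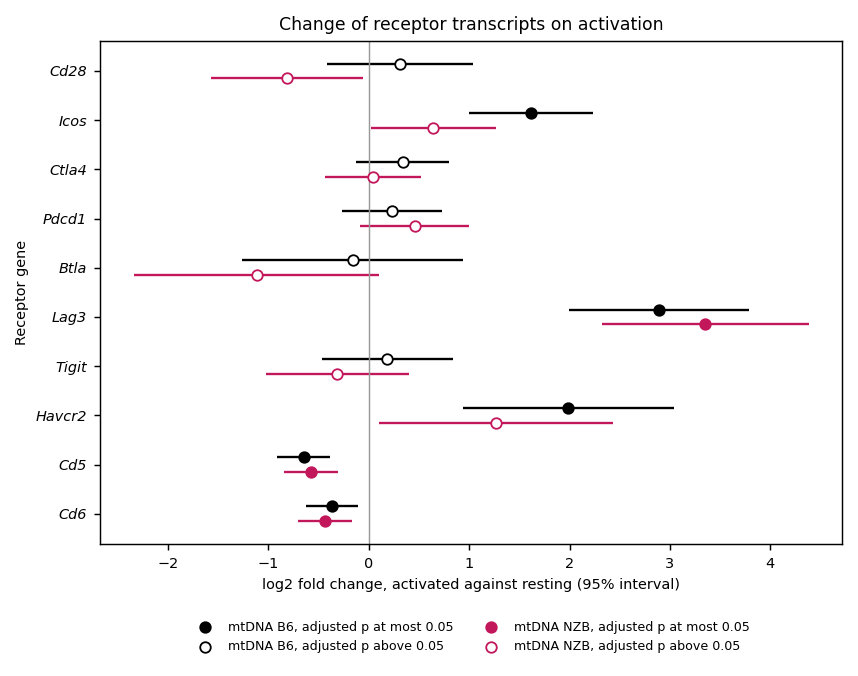
Log2 fold change of each receptor on activation in mtDNA B6 (black) and mtDNA NZB (magenta) cells, with 95% intervals; filled circles have an adjusted p of at most 0.05. Lag3 lies at 2.89 and 3.35, and Cd5 and Cd6 lie below 0 in both haplotypes.

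The libraries were split into 3 sets by the total of a second, larger count table divided by the UMI total. That table was taken from its size to hold counts before UMI deduplication, so the ratio is called reads per UMI. The sets were cut at the largest gaps of this ratio (1.88 to 1.96, 2.11 to 2.24 and 2.68 to 2.80). They are uneven: 5 of 6 activated mtDNA B6 libraries are in the first and none of the resting mtDNA B6 ones. With the set as a term in the model the 5 calls in mtDNA B6 cells remained, with Lag3 at 2.31, Icos at 1.75, Havcr2 at 1.87, Cd5 at -0.69 and Cd6 at -0.53. Within the second set, Lag3 lay at 3.99 to 12.2 CPM in 4 resting mtDNA B6 libraries and at 40.9 in the 1 activated library, and Icos at 2.98 to 8.73 and 20.7. Within the third set, Lag3 lay at 4.42 to 16.9 CPM in 4 resting mtDNA NZB libraries and at 33.1 and 126 in 2 activated ones. Under the set term Icos also rose in mtDNA NZB cells (0.82, adjusted p = 0.0348).

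The second comparison asked whether the receptors differ between the haplotypes. At rest 0 of 10 receptors were called by edgeR, where 2.64% of all genes were (1.86% higher and 0.786% lower), 0 of 10 had groups that did not overlap (1.14% of all genes), and 2 had an unadjusted p under 0.05, Icos and Cd28 (20.7% of all genes had). Icos was higher in mtDNA NZB by 1.09 ± 0.31 on the log2 scale (adjusted p = 0.0549), with 7.67 ± 3.22 CPM in mtDNA B6 (SD, n = 6) and 16.8 ± 7.72 in mtDNA NZB (n = 5, without the shallow library). Of those 5 libraries, 4 lay above every mtDNA B6 resting library. This value depends on the processing: DESeq2 gave 1.08 (adjusted p = 0.0374), while leaving out mtDNA NZB resting replicate 6 gave 0.81 (adjusted p = 0.123). The set term gave 0.97 (adjusted p = 0.168). The sets are uneven at rest too: the second holds 4 resting mtDNA B6 libraries and 1 of mtDNA NZB, and the third holds 2 and 4. Cd28 differed by 0.95 ± 0.35 (adjusted p = 0.127), with 3 of the 5 libraries above every mtDNA B6 one, and by 0.55 (adjusted p = 0.363) without mtDNA NZB resting replicate 3 and 0.62 (adjusted p = 0.392) with the set term. Ctla4 differed by 0.40 ± 0.23 (adjusted p = 0.331). With single libraries left out it ran from 0.26, without mtDNA B6 resting replicate 3, to 0.70 (adjusted p = 0.0464), without mtDNA B6 resting replicate 6. The highest adjusted p was 0.571. The other 7 receptors differed by -0.56 (Lag3) to 0.48 (Btla), and the interval was narrow only for Cd5 (-0.21 to 0.32) and Cd6 (-0.16 to 0.37).

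After activation 0 of 10 receptors were called by edgeR, as were 0.0% of all genes, and 0 had an unadjusted p under 0.05, against 3.04% of all genes. The groups overlapped for all 10, where 0.0568% of all genes did not overlap. DESeq2 also called 0 receptors. Differences ran from -0.47 (Btla) to 0.12 (Cd5 and Icos). Icos had 23.3 ± 8.15 CPM in mtDNA B6 and 26.0 ± 6.70 in mtDNA NZB (95% interval of the log2 difference -0.46 to 0.70), Lag3 had 69.2 ± 39.7 and 62.9 ± 38.1 (-0.89 to 0.69), and Ctla4 had 104 ± 15.1 and 111 ± 24.8 (-0.35 to 0.57). For Cd5 and Cd6 the intervals, -0.14 to 0.38 and -0.23 to 0.30, lie within a log2 difference of 0.5 of 0. The interval of Havcr2 was far wider, from -1.40 to 0.50.

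**Figure D3:**
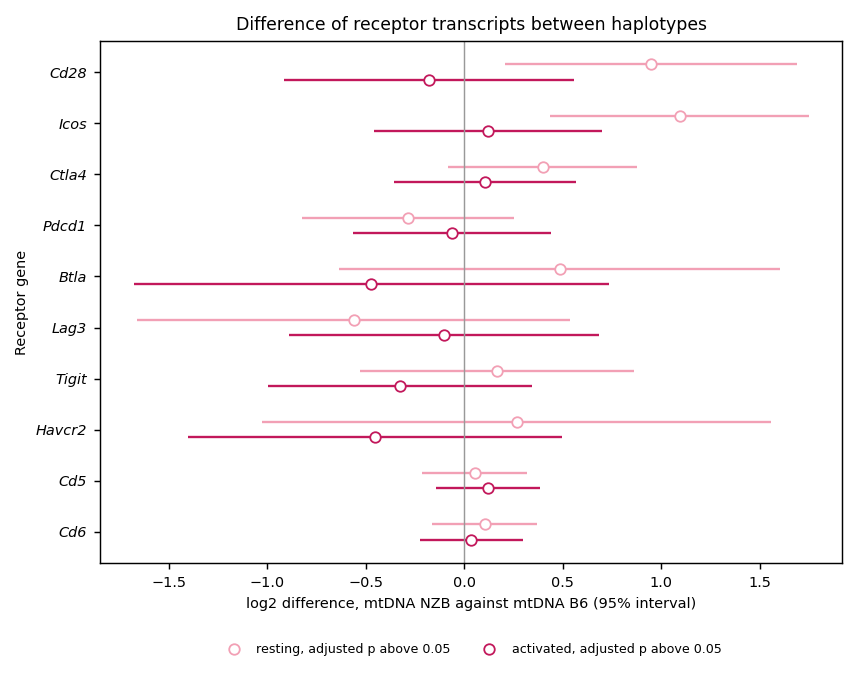
Log2 difference of each receptor between mtDNA NZB and mtDNA B6 cells, at rest (pale) and after activation (dark), with 95% intervals; no receptor had an adjusted p of at most 0.05. Icos at 1.09 and Cd28 at 0.95 lie to the right at rest, and after activation all 10 lie between -0.47 and 0.12.

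An interaction term tested the difference between the responses of the haplotypes. It called 0 of 10 receptors with edgeR, as it did 0.0% of all genes, and DESeq2 also called 0 receptors. An unadjusted p under 0.05 was found for 2 receptors, against 14.0% of all genes: Cd28, with a log2 difference of responses of -1.12 ± 0.50 (adjusted p = 0.315), and Icos, with -0.97 ± 0.42 (adjusted p = 0.302). So Icos and Havcr2, called in mtDNA B6 and not in mtDNA NZB cells, are not shown to respond differently (Havcr2 interval -2.33 to 0.89). The difference was 0.46 for Lag3 (95% interval -0.89 to 1.81), 0.07 for Cd5 (-0.31 to 0.44) and -0.07 for Cd6 (-0.44 to 0.30).

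Ratios of UMI counts within a library do not depend on its scaling, and are given as a description. Icos to Cd28 had a median of 1.27 in resting mtDNA B6 libraries (0.429 to 1.64) and 3.42 after activation (1.63 to 3.86). In mtDNA NZB libraries it was 1.26 at rest (0.538 to 5.54, n = 5) and 3.61 after activation (2.33 to 4.33). The ratio was thus higher after activation in both haplotypes except that mtDNA NZB resting replicate 6, from 72 and 13 counts, lay above all activated libraries and the lowest activated mtDNA B6 library (1.63) reached the resting range. Ctla4 to Cd28, receptors of the same ligands, had medians of 12.2 and 12.4 in resting and activated mtDNA B6 libraries and 9.15 and 14.1 in mtDNA NZB, with wide overlap. Cd5 to Cd6 had medians of 0.923 and 0.817 in mtDNA B6 and 0.899 and 0.832 in mtDNA NZB. In resting mtDNA B6 libraries the Cd5 to Cd6 ratio stayed between 0.875 and 0.965.

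**Figure D4:**
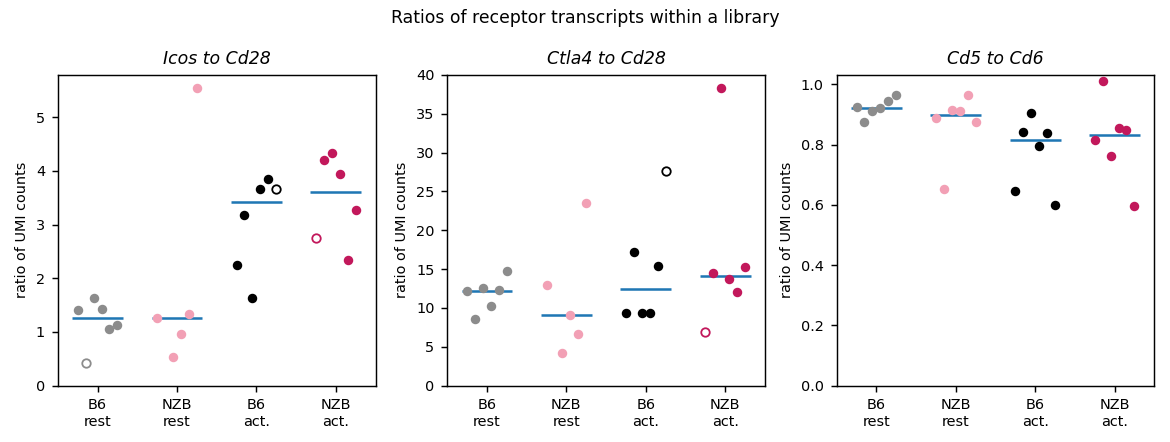
Ratio of UMI counts of 2 receptors in each library, by haplotype and state, with the median as a blue line; open circles rest on fewer than 10 counts of either gene, and mtDNA NZB resting replicate 2 has no count of Cd28. Median Icos to Cd28 is 1.27 and 1.26 at rest and 3.42 and 3.61 after activation.

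How the receptors varied among libraries of the same group is given as Pearson's r of log2 CPM after taking off group means, over 23 libraries, which differ in depth and in cell makeup. The closest pairs were Pdcd1 with Tigit (0.74), Cd5 with Cd6 (0.67) and Tigit with Havcr2 (0.65), and the most opposed pair was Havcr2 with Cd5 (-0.67). Over all 23 libraries, states included, the gene most like Lag3 was Rom1 (r = 0.948), that most like Icos was Aebp2 (0.902), and that most like Cd5 was Rasgrp2 (0.925), a Ras activator of lymphocytes, with Dgka also close (0.919). For Cd6 it was Arhgef1 (0.908), for Cd28 Ikzf1 (0.725), for Ctla4 Sh3rf1 (0.705) and for Pdcd1 Adk (0.688).

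The ligands of these receptors were measured in the same RNA. The counts of this and the following gene lists stand beside the shares over all genes tested, 22.3% higher and 24.4% lower on activation in mtDNA B6, and 25.1% higher and 28.2% lower in mtDNA NZB. Of 15 ligand genes 9 were tested: activation of mtDNA B6 cells raised 1 and lowered 4, and that of mtDNA NZB cells raised 0 and lowered 4. Icosl, the ligand of ICOS, fell from 30.9 to 4.42 CPM in mtDNA B6 (log2 fold change -2.80 ± 0.31) and by 2.55 ± 0.32 in mtDNA NZB. It is made by B cells and myeloid cells. The 9 of 9 myeloid markers tested were lower in each haplotype. Of 10 B cell markers 2 were lower (Ighm and Cr2) and 8 were not called, with list medians of -0.15 and -0.51 on the log2 scale. The part of these cells in the fall of Icosl was not tested. Cd274, the PD-1 ligand PD-L1, fell by 0.53 and 1.04, and Ceacam1, a TIM-3 partner, by 1.96 and 1.80. Cd80 and Cd86, the ligands of CD28 and CTLA-4, were below the filter, with 114 and 152 UMI counts in all 24 libraries.

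Among 16 other costimulatory and inhibitory receptors tested, there were 4 rises and 3 falls in mtDNA B6 cells and 2 of each in mtDNA NZB cells. Slamf6, a SLAM family receptor, rose by 0.76 and 0.83 and Cd2, an adhesion and costimulatory receptor, by 0.40 and 0.30. Vsir, which encodes the checkpoint VISTA, fell by 1.10 ± 0.12 and 1.31 ± 0.12. Cd226, the activating receptor that competes with TIGIT for CD155, fell by 1.31 and 0.64.

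Signalling genes downstream of the receptors moved in both directions. Of 22 genes that carry costimulatory signals, 5 rose and 2 fell in mtDNA B6 and 2 rose and 9 fell in mtDNA NZB, so 7 and 11 of 22 were called, against 46.8% and 53.3% of all genes. Akt1, the kinase downstream of the PI3K docking motif shown above, rose by 0.79 ± 0.14 and 0.86 ± 0.14, and Vav1 by 0.39 and 0.38, while Pik3r1, the PI3K subunit that binds that motif, fell by 1.75 ± 0.15 and 2.11 ± 0.15. Bcl10, a scaffold of NF-kB signalling, fell by 0.66 and 1.26. At rest it was higher in mtDNA NZB by 0.72 ± 0.17 (edgeR, adjusted p = 0.0332), the only 1 of the 22 called there, against 2.64% of all genes. Its resting mtDNA NZB libraries spread widely, at 221 ± 97.3 CPM (SD, without the shallow library) against 131 ± 12.3 in mtDNA B6. Of 18 inhibitory signalling genes, 8 rose and 3 fell in mtDNA B6, and 1 rose and 5 fell in mtDNA NZB. Thus 11 and 6 of 18 were called, against 46.8% and 53.3% of all genes. The interaction term called 0 of the 22 and 0 of the 18 genes, so neither list is shown to respond differently between haplotypes. Dok2, an adaptor that restrains Ras, rose by 0.84 and 0.69, and Dgka, which clears diacylglycerol, fell by 0.83 and 0.77. Pag1, an anchor of the kinase CSK, fell by 1.23 and 1.69 and the ubiquitin ligase Itch by 0.70 and 0.92.

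Of 14 genes of receptor trafficking and RNA decay tested, 3 rose and 2 fell in mtDNA B6 and 1 rose and 3 fell in mtDNA NZB. Ap2m1, the clathrin adaptor subunit that takes up CTLA-4 through the tail motif printed above, rose by 0.49 ± 0.09 and 0.35 ± 0.10. Zc3h12a, the nuclease Regnase-1, which degrades Icos and other mRNAs, fell by 2.18 ± 0.18 and 2.69 ± 0.19. Of 19 transcription factors tested, 7 rose and 8 fell in mtDNA B6 and 4 rose and 7 fell in mtDNA NZB. Tbx21 (T-bet) rose by 1.68 ± 0.19 and 1.59 ± 0.20, Rbpj by 1.08 and 0.83 and Batf by 0.77 and 0.70. Nr4a1, an early gene of antigen receptor signalling, fell by 3.70 ± 0.20 and 3.62 ± 0.20 from 1378 CPM in resting mtDNA B6 cells, and Foxo3 fell by 1.79 and 2.18. Nr4a2 fell by 1.52 ± 0.54 and 3.38 ± 0.57, from 10.2 ± 5.05 and 29.1 ± 26.6 CPM at rest (SD, without the shallow library). Its responses are not shown to differ between haplotypes (interaction term in edgeR -1.86 ± 0.79, adjusted p = 0.301).

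The promoters, from 250 bases before to 50 bases after the start of the canonical transcript, were searched on both strands for 5 motifs of factors that act in activated T cells. The AP-1 motif TGACTCA, an NF-kB consensus of 10 bases, the CRE TGACGTCA and the ETS motif CCGGAAGT were in 0 of 10 receptor promoters and in 4.70%, 0.156%, 2.44% and 4.35% of 21770 promoters. The NFAT motif GGAAAAT was in 1 of 10, that of Ctla4, and in 5.03% of all. It is shown because it was the single match, in capitals and on the reverse strand, at chr1:60948027-60948056 (GRCm39, plus strand), where its first base is at position -146 from the start.
Ctla4 promoter: aagttgagtacATTTTCCatccatggattt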

How the data were processed

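RNA of Tconv CD4+ cells was measured in 24 libraries with a 3′ bulk MARS-seq protocol, and groups were taken from sample titles. The authors trimmed reads with cutadapt, dropped those under 30 bases, mapped the rest with STAR to the last 1000 bases of genes (GRCm39, Ensembl 106), counted with HTSeq, removed UMI duplicates and corrected for saturation. They deposited these UMI counts and a second table of larger counts, and 1 column of it matching no sample was not used. The depth of the libraries was 51409 to 6449395 UMI counts.

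Counts were analysed with edgeR 4.0.16 in R 4.3.3: TMM scaling, filterByExpr, 4 groups fitted together, quasi-likelihood test, Benjamini-Hochberg adjustment over 10566 genes, calls at an adjusted p of at most 0.05. The standard error is the log2 fold change divided by the square root of F, and 95% intervals use 20 degrees of freedom. The steps were tested on simulated data. Alternatives included DESeq2 1.42.0. Genes outside the receptors were named where the change was in the same direction in both haplotypes and among the 3 largest of a list, with at least 10 CPM in a group. Other genes named, such as Cd69, Klrb1c, Cr2, Cd80 and Cd86, describe a list or its markers and were chosen after their values were seen. No 2 libraries of a group agreed within sampling noise (lowest chi-square divided by degrees of freedom 2.77). The receptors and lists were chosen with earlier results of these data known. Coordinates and sequences are from GRCm39 with GENCODE M39.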

Additional observations from a re-analysis of the deposited data

Results flagged for a closer look

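In 6 of 40 combinations of a receptor and a group, a single library stood apart from the other 5 by Dixon's test, which chance alone does in about 1 in 20 groups. Ctla4 was at 167 CPM (443 UMI counts) in mtDNA B6 resting replicate 6, with the others at 46.6 to 89.3. Tigit in the same library was at 9.03 CPM (24 counts), with the others at 3.37 to 5.48. That library had the highest neutrophil sum of its group, 6826 CPM, and the part of those cells in these values was not tested. Havcr2 was at 18.1 CPM (71 counts) in mtDNA B6 activated replicate 1, with the others at 4.09 to 5.62, and the NK list was highest in the same library. Btla was at 16.9 CPM in mtDNA NZB resting replicate 2, from 1 count. Cd6 was at 262 CPM in mtDNA NZB resting replicate 6, with the others at 374 to 415, in the library with the lowest T cell sum (5535 CPM). Cd6 was at 336 CPM in mtDNA B6 activated replicate 6, with the others at 227 to 267.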

How the results depend on the processing

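The alternatives were median-of-ratios scaling, DESeq2, no or a stricter filter, the second count table, other sets of libraries, only the groups compared, a replicate block, the set of reads per UMI as a term, and a fold cut-off. Adding a log2 fold change of at least 1 removed the falls of Cd5 and Cd6 (0 fell in either haplotype). With 21 libraries (without mtDNA NZB resting replicates 2 and 6 and activated replicate 6, a choice known from earlier work on these data) 2 receptors rose in mtDNA NZB (Icos 0.90, adjusted p = 0.0203), Cd28 fell there (-1.07, adjusted p = 0.0218), and 1 receptor differed at rest (Cd28, 1.17, adjusted p = 0.0476). DESeq2 also called 1 at rest (Icos), and the set term gave 2 rises in mtDNA NZB. The label numbers were not taken to pair the libraries, since not every pair correlated: same-numbered libraries correlated at -0.04 to 0.32 over 5 pairs in mtDNA B6 (3 best with their own number) and at -0.22 to 0.01 over 4 pairs in mtDNA NZB (0 best). With the replicate block by label number 1 receptor fell in each haplotype, since Cd6 missed the threshold (-0.31, adjusted p = 0.0732; -0.37, adjusted p = 0.0573), and 2 rose in mtDNA NZB (Havcr2 1.67, adjusted p = 0.0427). Directions reversed only for receptors that were not called: on activation Cd28 in mtDNA B6 (-0.32, set term) and Ctla4 in mtDNA NZB (-0.027 with the second table, -0.032 with the block by label number); at rest Tigit (-0.017 with 21 libraries, -0.020 with the set term) and Havcr2 (-0.31, 21 libraries); after activation Cd28 (0.15) and Lag3 (0.10) under the set term; in the response Cd5 (-0.012 with 21 libraries, -0.035 with the block by label number) and Cd6 (0.057, set term). Leaving out each library in turn gave 3 to 4 rises and 1 to 2 falls in mtDNA B6, 1 to 4 rises and 2 to 3 falls in mtDNA NZB, 0 to 2 receptors higher at rest, and 0 after activation and for the response. The 4 rises in mtDNA NZB came without its resting replicate 6, and the 2 at rest (Icos and Ctla4) without mtDNA B6 resting replicate 6. Some log2 values that were not called changed sign without a library: on activation Tigit (-0.017 to 0.42) and Btla (-0.66 to 0.18) in mtDNA B6 and Ctla4 (-0.058 to 0.14) in mtDNA NZB; between haplotypes at rest Tigit (-0.035 to 0.36), Havcr2 (-0.32 to 0.65) and Cd5 (-0.021 to 0.15), and after activation Pdcd1 (-0.20 to 0.12), Lag3 (-0.41 to 0.24), Havcr2 (-0.79 to 0.12), Btla (-0.72 to 0.034) and Cd6 (-0.014 to 0.11); in the response Cd5 (-0.029 to 0.14) and Cd6 (-0.16 to 0.0096).

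Counts of called list genes moved by over 1.5 times in mtDNA B6 for ligands (5 to 3, second table and set term), other receptors (7 to 4, no filter and set term), costimulatory signalling (7 to 3, set term), inhibitory signalling (11 to 6, set term) and trafficking (5 to 8, only the groups compared). In mtDNA NZB they moved for other receptors (4 to 1 with no filter, to 2 with the second table, only the groups compared or the block by title number), costimulatory signalling (11 to 7, block by label number) and trafficking (4 to 7, 21 libraries). Without a library the mtDNA B6 counts ran from 4 to 6, 4 to 8, 6 to 8, 9 to 11, 5 to 7 and, for transcription factors, 12 to 16; the mtDNA NZB counts ran from 4 to 4, 1 to 4, 9 to 12, 5 to 8, 4 to 7 and 10 to 12. The cause of these changes was not tested.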
